A study of Mus musculus with 10 samples.

Results

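The amino acid and neurotransmitter transporters described here are the genes of 7 solute carrier families, Slc1a, Slc3a, Slc6a, Slc7a, Slc36a, Slc38a and Slc43a. They were chosen by gene symbol alone, and the symbols took 61 of the 50763 genes in the count table. RNA of lens epithelium from mice of 3 weeks of age was sequenced in 10 libraries, of which 3 were of wild-type (WT), 3 of OVE853 and 4 of OVE918 mice. All mice were on the FVB/N background. OVE853 and OVE918 are separate transgenic families in which the lens-specific αA-crystallin promoter drives a secreted, constitutively active human TGF-β1, and their mice carried plaques of anterior subcapsular cataract. The methods describe the mice as homozygous, with males and females in equal parts. The transgene acts in lens cells, whereas the whole explanted epithelium, with plaque, entered each library. Every library is a pool, of up to 9 mice in WT and OVE853 and up to 7 in OVE918, so that the spread between replicates is that between pools. Tgfb1, the gene the lines overexpress, was measured at 50.6 to 61.7 CPM (counts scaled to library size) in WT, 339 to 361 in OVE853 and 715 to 881 in OVE918. These counts fell on the mouse gene model, and the human transgene was not counted separately here.

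Solute carriers of these families move amino acids and their relatives across cell membranes. The Slc6a and Slc1a proteins draw on the sodium gradient to take up GABA, glycine, taurine, creatine and glutamate, and are best known for clearing neurotransmitters from synapses. The Slc7a light chains work as exchangers and need a heavy chain of the Slc3a family to reach the membrane, and the Slc38a and Slc36a proteins carry neutral amino acids with sodium or protons, some of them out of lysosomes. The lens has no blood supply and depends on such uptake from the aqueous humor for protein synthesis, for the cysteine and glycine of glutathione, and for osmolytes such as taurine.

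Total counts on genes ranged from 24073311 to 31908525 per library. The lens epithelial marker Foxe3 lay between 424 and 836 CPM and Pax6 between 356 and 473 CPM in all 10 libraries. Several of the 8 lens epithelial markers differed between the groups. Gja1 had 512 to 572 CPM in WT, 98.0 to 127 CPM in OVE853 and 55.6 to 79.9 CPM in OVE918. Six3 had 115 to 118 CPM in WT, 88.8 to 90.0 CPM in OVE853 and 67.1 to 77.1 CPM in OVE918. Cdh1 had 258 to 395 CPM in WT, 171 to 227 CPM in OVE853 and 192 to 277 CPM in OVE918. Prox1 was higher in OVE853, with 638 to 660 CPM as against 294 to 532 CPM in WT. In OVE918 it had 410 to 757 CPM and overlapped WT. WT replicate 3 stood apart from the other WT libraries. The 11 markers of retinal neurons summed to 977 CPM there, as against 98.5 and 122 CPM in WT replicates 1 and 2, 25.5 to 76.0 CPM in OVE853 and 28.9 to 160 CPM in OVE918, and all 11 were highest in that library. Markers of Müller glia, 6 genes without Slc1a3, summed to 639 CPM in WT replicate 3 and to 199 and 180 CPM in the other WT libraries. The transporter genes that passed both limits of the test described below are therefore also given without it. Other values are in part given only with it. Among these are the OVE853 values of Slc1a5, Slc7a6, Slc7a2, Slc38a2 and Slc38a4, for which it was the lowest WT library. The labels name no batch or date.

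Of the 61 transporter genes, 58 had at least 1 count and 3 (Slc6a18, Slc6a21 and Slc7a12) had 0 counts in all libraries. Levels between genes are given per exon length, as FPKM, the count divided by exon length and library size. A filter of at least 2 FPKM in 5 of 10 libraries, after the methods of the study, let 26 transporter genes into the test. With 6 libraries required, as its results word the filter, 24 entered and Slc6a13 was not among them. Another 20 passed only filterByExpr, the count-based filter of edgeR, and the last 15 passed neither filter, with at most 24 counts in any library.

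A few carriers made up most of the transporter RNA. By mean FPKM over the 10 libraries, the order was led by Slc3a2, Slc38a2, Slc7a8, Slc7a2 and Slc6a6, and these 5 genes held 62.1% to 72.1% of the summed FPKM of all 61 genes in each library. In WT, Slc3a2, the heavy chain of the exchangers, had 277 ± 19.5 FPKM (SD, n = 3) and Slc6a6, the taurine transporter, 166 ± 46.7 FPKM. They were followed by Slc7a8, a light chain for neutral amino acids, with 114 ± 18.9 FPKM, Slc38a2, a sodium-coupled carrier of small neutral amino acids, with 97.1 ± 24.1 FPKM, and Slc7a2, a carrier of arginine and lysine, with 78.3 ± 17.8 FPKM. Within each WT library Slc7a8 lay above Slc38a2 and this above Slc7a2, whereas Slc6a6 lay below Slc7a8 in WT replicate 2, with 113 as against 133 FPKM. Summed over all 61 genes, the level was 1086 to 1123 FPKM in WT, 999.96 to 1060 FPKM in OVE853 and 581 to 869 FPKM in OVE918. The OVE918 libraries all lay below the WT libraries, but FPKM is scaled by the total count alone, without the normalization factors used for CPM.

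**Figure D1:**
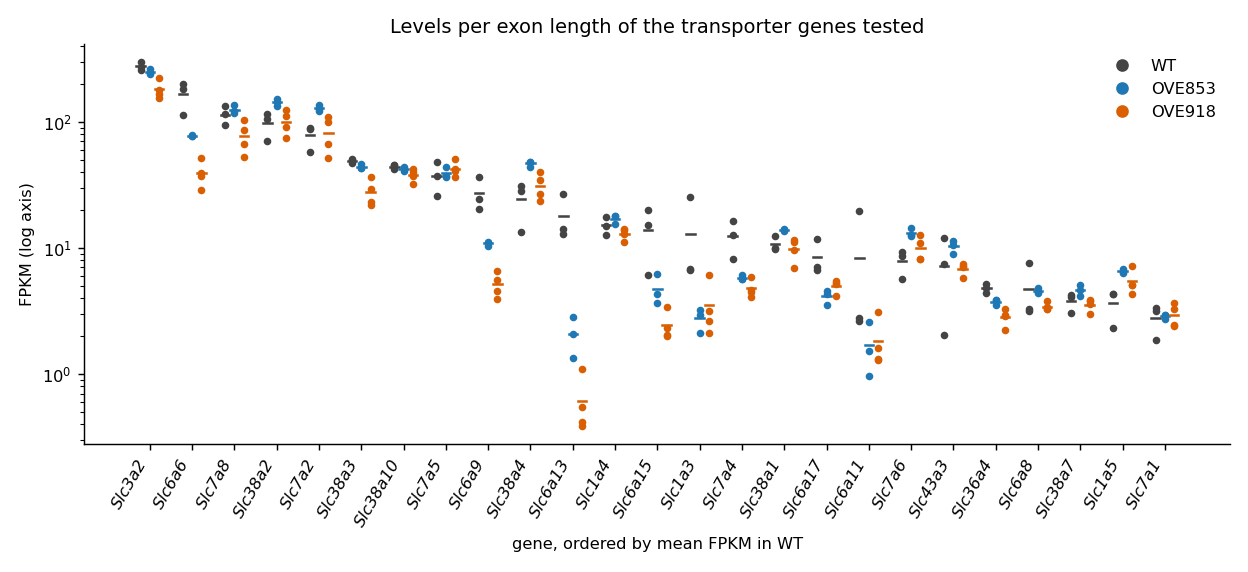
Level of 25 of the 26 tested transporter genes in FPKM (log axis) by gene, ordered by mean FPKM in WT; points are libraries (3 WT, 3 OVE853, 4 OVE918) and short lines are group means. Slc3a2 is highest in WT with 277 FPKM, and Slc6a13 shows the widest fall, from 18.0 FPKM in WT to 2.08 FPKM in OVE853 and 0.61 FPKM in OVE918.

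The comparison of each transgenic line with WT asks which carriers differ in lens epithelium that overexpresses TGF-β1. In OVE853, 7 of the 26 tested transporter genes were differentially expressed genes (DEGs), and all 7 were reduced. DEGs are genes that differ by 1 or more on the log2 scale in either direction at an FDR up to 0.05. Of all 11094 genes tested, 4.43% were DEGs in OVE853 and 1.91% were reduced DEGs. In OVE918, 5 of the 26 were DEGs, again all reduced, as against 5.59% of all genes as DEGs and 3.01% as reduced DEGs. Slc6a6, Slc6a9, Slc6a13, Slc6a15 and Slc7a4 were reduced DEGs in both lines, and Slc1a3 and Slc6a17 met both limits in OVE853 and not in OVE918. The comparisons share the WT libraries, so that a match between them is no independent evidence. On the log2 scale the 26 genes had a median fold change of -0.14 (OVE853) and -0.43 (OVE918), beside -0.01 and 0.01 for all genes tested. In bulk tissue, fewer cells of a type and less RNA per cell cannot be told apart.

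**Figure D2:**
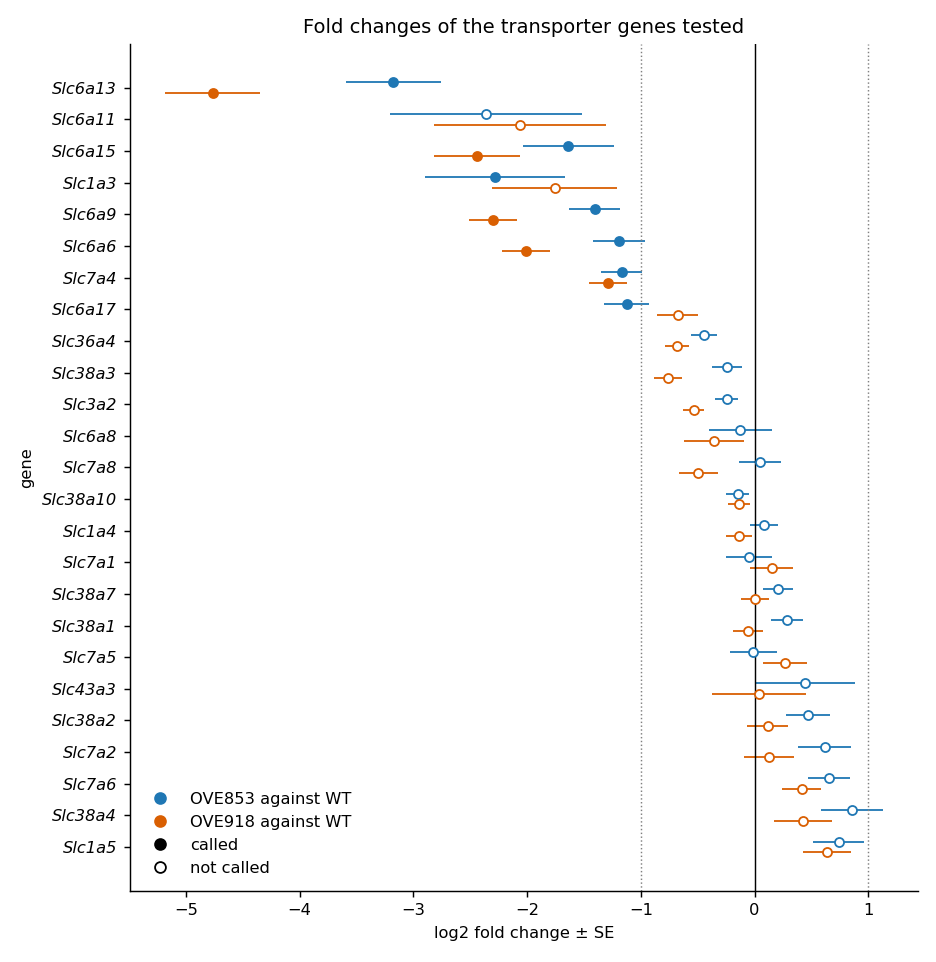
Log2 fold change against WT with its SE for 25 of the 26 tested transporter genes, in OVE853 (blue) and OVE918 (orange); filled points passed both limits, open points did not, and dotted lines mark a log2 fold change of -1 and 1. The filled points all lie to the left, with 7 in OVE853 and 5 in OVE918, whereas the amino acid carriers of the Slc38a family lie between -0.76 and 0.86.

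The sequences upstream of the reduced DEGs of both lines were read from GRCm39. Smad proteins, which carry the TGF-β signal, bind the short motif CAGAC, or GTCTG on the other strand. Whether they act on these genes was not tested. The 250 bases before the start of the canonical transcript are shown for 3 of the 5 reduced DEGs of both lines, with each such motif in capitals. Slc6a9 and Slc7a4 are left out because the window overlaps annotated UTRs. The Slc6a13 window, chr6:121276936-121277185 on the plus strand, lies within the antisense gene Gm66914 but in none of its exons. The Slc6a6 window, chr6:91660784-91661033 on the plus strand, lies within introns of Slc6a6 and of the antisense gene Gm30628. The Slc6a15 window, chr10:103203201-103203450 on the plus strand, lies within an intron of Slc6a15 and overlaps an exon of the antisense gene Gm66970.
Slc6a13: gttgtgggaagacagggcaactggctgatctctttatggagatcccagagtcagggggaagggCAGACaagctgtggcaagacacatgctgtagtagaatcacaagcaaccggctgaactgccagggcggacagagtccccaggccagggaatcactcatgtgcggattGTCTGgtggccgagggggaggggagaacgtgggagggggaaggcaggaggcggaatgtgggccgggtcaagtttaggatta
Slc6a6: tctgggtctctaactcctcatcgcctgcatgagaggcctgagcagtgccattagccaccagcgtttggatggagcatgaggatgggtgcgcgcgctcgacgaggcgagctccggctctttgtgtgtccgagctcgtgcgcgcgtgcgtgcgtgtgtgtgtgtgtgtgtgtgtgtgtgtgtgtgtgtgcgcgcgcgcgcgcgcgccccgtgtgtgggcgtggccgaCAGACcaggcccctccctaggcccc
Slc6a15: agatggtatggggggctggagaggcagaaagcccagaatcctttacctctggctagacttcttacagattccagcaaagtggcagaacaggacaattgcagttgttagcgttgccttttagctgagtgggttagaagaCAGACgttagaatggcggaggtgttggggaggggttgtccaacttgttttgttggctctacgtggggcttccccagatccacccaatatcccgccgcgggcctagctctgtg

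The Slc6a13 window held 2 such motifs and those of Slc6a6 and Slc6a15 held 1 each. Slc7a4 also held 1 and Slc6a9 0, so that 4 of 5 windows held the motif. Of the 21751 windows of protein-coding genes, 41.3% held it, and of the windows of the 61 transporter genes 29 (47.5%). CAGGTG, or on the other strand CACCTG, the E-box bound by repressors of the SNAIL and ZEB type, was in 0 of the 5 windows, in 15 of the 61 transporter windows (24.6%) and in 17.7% of all windows. TGGAAA, or on the other strand TTTCCA, the core of the motif of the osmotic stress factor NFAT5, was in 1 of the 5 (Slc7a4), in 9 of the 61 (14.8%) and in 19.4% of all. Among the windows of the 26 tested transporter genes, 42.3% held CAGAC, 30.8% the E-box and 11.5% the NFAT5 core. With 5 windows the counts of the reduced DEGs are a description, and a match in letters is not a binding site.

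Among the carriers of GABA, betaine, taurine and creatine, Slc6a13 and Slc6a6 were reduced in both lines. Slc6a13, which takes up GABA and taurine and lies at chr6:121277186-121316121 (GRCm39), had 39.9, 40.6 and 76.9 CPM in WT, 7.73, 6.04 and 3.57 CPM in OVE853 and 1.799, 1.19, 3.34 and 1.29 CPM in OVE918. All transgenic libraries lay below all WT libraries, and the OVE918 libraries below those of OVE853. It fell by 3.18 ± 0.42 (SE) on the log2 scale in OVE853 (FDR = 0.00104) and by 4.77 ± 0.41 in OVE918 (FDR = 5.03e-05), the largest fold change of any transporter gene in the test. Its entry into the test rested on the WT libraries and 2 OVE853 libraries at 2 FPKM. In a fit of the same genes without WT replicate 3 the fold changes were -2.79 and -4.38. With the filter applied anew without that library, Slc6a13 did not enter the test, so that its entry rested on that library too.

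Slc6a6, the taurine transporter at chr6:91660573-91736047, had 1792, 1039.6 and 1831 CPM in WT. It had 670, 704 and 666 CPM in OVE853 and 412, 333, 495 and 307 CPM in OVE918. The 3 groups do not overlap, with every OVE918 library below every OVE853 library and these below WT. The gene fell by 1.19 ± 0.23 in OVE853 (FDR = 0.00662) and by 2.01 ± 0.21 in OVE918 (FDR = 8.79e-05), which are 2.29-fold and 4.02-fold lower levels. Because Slc6a6 is the most abundant Slc6a gene, the summed level of the 19 Slc6a genes moved with it, from 183 to 350 FPKM in WT to 107 to 110 FPKM in OVE853 and 47.6 to 74.4 FPKM in OVE918.

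Slc6a12, the carrier of betaine and GABA and the next gene on chromosome 6 (chr6:121320035-121342734), was expressed too low for the FPKM filter as applied here. It had 3.00, 2.42 and 9.50 CPM in WT, 0.39, 0.19 and 0.10 CPM in OVE853 and 0.39, 0.07, 0.33 and 0.23 CPM in OVE918. All transgenic libraries were lower than all WT libraries. Under filterByExpr it fell by 4.39 ± 0.69 in OVE853 (FDR = 0.00317) and the log2 fold change in OVE918 was -4.23 ± 0.62 (FDR = 0.00109). The fold changes were -3.56 and -3.39 when WT replicate 3 was left out. It passed that filter mainly through WT, with 3 WT libraries, 1 OVE853 library and 0 OVE918 libraries over its count limit, so that it had to differ. Slc6a8, the creatine transporter, did not pass the test in either line, with log2 fold changes of -0.12 and -0.36 that turned to 0.39 and 0.15 in a fit of the same genes without WT replicate 3.

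Slc6a11, a GABA transporter of glia, had its highest level in WT replicate 3. It had 11.7, 11.7 and 81.9 CPM in WT, 6.04, 10.9 and 3.71 CPM in OVE853 and 15.03, 5.29, 7.10 and 6.37 CPM in OVE918. OVE853 lay below WT and OVE918 overlapped it. The library highest in retinal neuron markers in OVE918, replicate 1 with 160 CPM, was also the highest OVE918 library in this gene. Slc6a11 did not pass the test in OVE853 (FDR = 0.0911) or OVE918 (FDR = 0.0958). In a fit of the same genes without WT replicate 3 its log2 fold change was -0.77 in OVE853 and -0.47 in OVE918, instead of -2.36 and -2.06.

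Among the carriers of glycine, proline and neutral amino acids, Slc6a9, Slc6a15 and Slc6a17 were tested and all 3 were reduced DEGs in OVE853. Slc6a9, the glycine transporter of glia and many other cells (chr4:117691703-117732395), had 92.0, 72.4 and 127 CPM in WT, 37.7, 36.4 and 35.8 CPM in OVE853 and 26.6, 15.8, 20.6 and 16.0 CPM in OVE918. The 3 groups do not overlap. It fell by 1.41 ± 0.23 in OVE853 (FDR = 0.00255) and by 2.30 ± 0.21 in OVE918 (FDR = 4.26e-05), with fold changes of -1.17 and -2.06 without WT replicate 3.

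Slc6a15, a carrier of branched-chain amino acids and proline (chr10:103202915-103255240), had 80.9, 58.3 and 23.0 CPM in WT. The value of 23.0 CPM belongs to WT replicate 3, so that for this gene the library with retinal markers was the lowest of WT, at 0.33 times the mean of the other WT libraries. OVE853 had 13.4, 23.6 and 15.2 CPM and OVE918 8.87, 12.7, 9.29 and 8.86 CPM. OVE853 overlaps WT by 1 library and OVE918 does not. Slc6a15 fell by 1.64 ± 0.40 in OVE853 (FDR = 0.0248) and by 2.44 ± 0.38 in OVE918 (FDR = 0.00164). Without WT replicate 3 the fold changes were -2.004 (FDR = 0.000388) and -2.81 (FDR = 1.78e-05). The call in OVE853 was lost without WT replicate 2 (FDR = 0.0556), OVE853 replicate 1 (FDR = 0.0966) or OVE853 replicate 3 (FDR = 0.0957), with no filter (FDR = 0.0894) and in a fit of only the groups compared (FDR = 0.0751).

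Slc6a17, a carrier of neutral amino acids into synaptic vesicles (chr3:107374859-107428439), had 48.4, 43.4 and 75.1 CPM in WT. It had 26.4, 29.2 and 21.0 CPM in OVE853 and 38.2, 34.8, 35.5 and 30.6 CPM in OVE918. All transgenic libraries lay below WT, and here the OVE918 libraries lay above those of OVE853. The gene fell by 1.12 ± 0.20 in OVE853 (FDR = 0.00421), whereas the log2 fold change in OVE918 was -0.68 ± 0.18 (FDR = 0.0247) and did not reach the limit of 1. Without WT replicate 3 the fold change in OVE853 was -0.84 (FDR = 0.00358), which is also under the limit. The difference between the lines did not pass the test (0.45 ± 0.19, FDR = 0.189).

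The other carriers of this group were rare. Slc6a5, the glycine transporter of inhibitory neurons, and Slc6a7, the proline transporter of brain, had 5.96 and 3.37 CPM in WT replicate 3 and at most 1.20 CPM in any other library. Neither was called under filterByExpr in either line. Slc6a14, Slc6a16 and Slc6a19 had at most 0.42 CPM in all libraries. Of the monoamine transporters, Slc6a3, the dopamine transporter, was the only one over 1 CPM, with 3.44 to 4.31 CPM in WT, 3.52 to 3.81 CPM in OVE853 and 4.16 to 4.89 CPM in OVE918. The serotonin transporter Slc6a4 and the noradrenaline transporter Slc6a2 had at most 0.26 CPM.

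**Figure D3:**
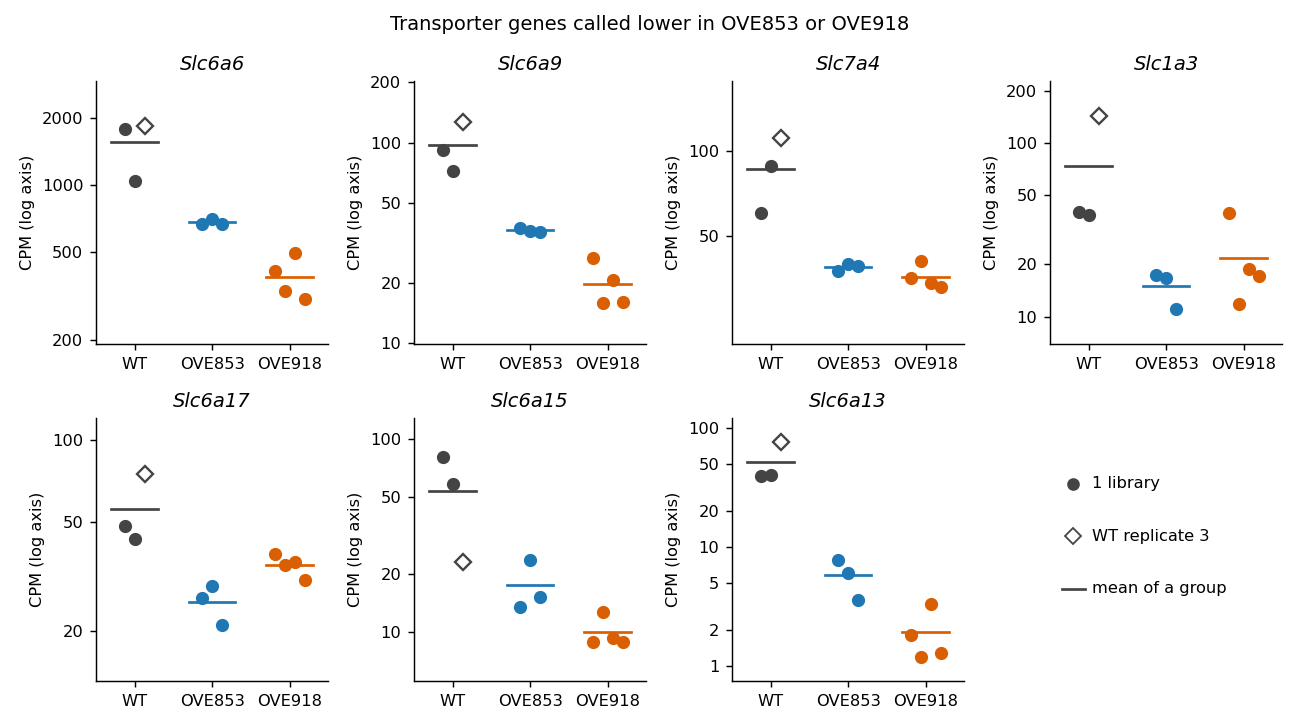
Level in CPM (log axis) of the 7 transporter genes that were reduced DEGs in OVE853 or OVE918; points are libraries, the open diamond is WT replicate 3 and lines are group means. WT replicate 3 is the highest WT library for each gene except Slc6a15, where it is the lowest with 23.0 CPM, and in Slc1a3 it has 142 CPM beside 39.8 and 38.2 CPM in the other WT libraries.

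The Slc1a family holds glutamate transporters and carriers of small neutral amino acids, which differed here in their pattern over libraries. Slc1a3, the glutamate transporter of glia (chr15:8663604-8741595), had 39.8, 38.2 and 142 CPM in WT, 17.4, 16.8 and 11.1 CPM in OVE853 and 39.3, 11.8, 18.8 and 17.2 CPM in OVE918. OVE853 lay below WT, and OVE918 replicate 1 lay within it. Slc1a3 fell by 2.28 ± 0.61 in OVE853 (FDR = 0.0388), and its log2 fold change in OVE918 was -1.76 ± 0.55 (FDR = 0.0563). Without WT replicate 3 these were -1.37 (FDR = 0.0809) and -0.85 (FDR = 0.219), so that the call was lost. It was also lost without any 1 of the OVE853 libraries (FDR between 0.0923 and 0.128) and without OVE918 replicate 3 (FDR = 0.0617), under a replicate block (FDR = 0.112), with no filter (FDR = 0.0992) and in a fit of only the groups compared (FDR = 0.0561). The retinal neuron and Müller glia markers given above were highest in the same WT library, and their part in the result was not tested.

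Slc1a1, a glutamate and cysteine transporter of neurons and epithelia, passed only filterByExpr. It had 4.47, 3.58 and 21.1 CPM in WT, 1.21 to 1.67 CPM in OVE853 and 0.60 to 3.64 CPM in OVE918. It was called in both lines (-2.73, FDR = 0.0391, and -2.26, FDR = 0.0418) and lost both calls without WT replicate 3 (-1.51, FDR = 0.0954, and -1.02, FDR = 0.211). Both calls were also lost without OVE853 replicate 1, 2 or 3 and without OVE918 replicate 3 or 4, and that of OVE918 without OVE918 replicate 2. Slc1a2, Slc1a6 and Slc1a7, the other glutamate transporters, were 4.26, 3.18 and 6.98 times as high in WT replicate 3 as in the mean of the other WT libraries.

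The neutral amino acid carriers Slc1a4 and Slc1a5 did not follow that pattern. Slc1a4, the most abundant Slc1a gene and a carrier of alanine and serine, had 64.6, 71.4 and 50.9 CPM in WT, 68.3, 62.9 and 66.8 CPM in OVE853 and 59.7, 55.3, 59.8 and 51.7 CPM in OVE918. The groups overlap, with log2 fold changes of 0.08 and -0.14. Slc1a5, a glutamine carrier, had 12.8, 12.2 and 6.49 CPM in WT, 16.7 to 18.0 CPM in OVE853 and 13.8 to 20.0 CPM in OVE918. All transgenic libraries lay above WT, with log2 fold changes of 0.74 ± 0.23 (FDR = 0.0486) and 0.64 ± 0.21 (FDR = 0.0612), both under the limit of 1. WT replicate 3 was the lowest WT library. Over the alternatives the OVE853 value ran from 0.45 to 0.91, with FDRs up to 0.137.

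The heavy chain Slc3a2, which most light chains need at the membrane, had 711, 771 and 703 CPM in WT. It had 598, 622 and 625 CPM in OVE853 and 461, 567, 486 and 494 CPM in OVE918, so that the 3 groups do not overlap. Relative to WT, Slc3a2 fell by 0.54 ± 0.10 on the log2 scale in OVE918 (FDR = 0.00271), under the limit of 1, and the value of -0.24 ± 0.10 in OVE853 did not pass (FDR = 0.124). With an FDR limit alone, 10 of the 26 genes passed in OVE853 (8 lower, 2 higher) and 9 in OVE918 (all lower), as against 15.8% and 19.0% of all genes tested. The heavy chain Slc3a1, of kidney and intestine, had at most 0.73 CPM.

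Of the light chains, Slc7a8 was the most abundant, with 985, 1074 and 760 CPM in WT, 908, 993 and 1009 CPM in OVE853 and 624, 826, 727 and 493 CPM in OVE918. OVE918 overlaps WT, and neither line passed the test for it, with fold changes of 0.05 and -0.49. Slc7a5, the light chain for large neutral amino acids such as leucine, had 183, 132 and 91.7 CPM in WT, 121 to 157 CPM in OVE853 and 149 to 179 CPM in OVE918, with fold changes of -0.01 and 0.27. Slc7a6, which exchanges cationic for neutral amino acids, had 51.7, 44.9 and 29.2 CPM in WT and 62.6, 65.5 and 69.6 CPM in OVE853. It was 0.65 ± 0.19 higher in OVE853 on the log2 scale (FDR = 0.038), under the limit of 1. WT replicate 3 was the lowest WT library for Slc7a6. Over the alternatives its OVE853 value ran from 0.41 to 0.83, with FDRs up to 0.127.

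Slc7a11, the cystine and glutamate exchanger that supplies cysteine for glutathione, was the light chain with the largest difference. It had 85.7, 128 and 161 CPM in WT, 19.0, 15.6 and 13.7 CPM in OVE853 and 10.4, 7.86, 10.2 and 5.54 CPM in OVE918. The 3 groups do not overlap. The gene has long exons (9226 bases in all), so that only 4 libraries reached 2 FPKM. The FPKM filter, with the exon lengths used here, left it out, although it had 120 to 4578 counts per library. Under filterByExpr it fell by 2.94 ± 0.27 in OVE853 (FDR = 0.00015) and had a log2 fold change of -3.85 ± 0.25 in OVE918 (FDR = 9.77e-06), which are 7.69-fold and 14.4-fold lower levels. The fold changes without WT replicate 3 were -2.76 and -3.65, and the gene was called in all 12 alternatives in each line.

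Taken as shares of the summed FPKM of the 6 light chains that pair with Slc3a2, Slc7a11 held 4.76%, 7.11% and 12.0% in WT, 0.84% to 1.25% in OVE853 and 0.49% to 0.86% in OVE918. Slc7a8 held 63.2% to 68.9% in WT, 67.6% to 71.7% in OVE853 and 50.7% to 61.8% in OVE918, and Slc7a5 18.0% to 26.7%, 19.5% to 24.2% and 29.2% to 40.6%. The share of Slc7a5 was thus above all other libraries in OVE918, while its level in CPM was not. A share moves when any other light chain moves, and no test was run on the shares.

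**Figure D4:**
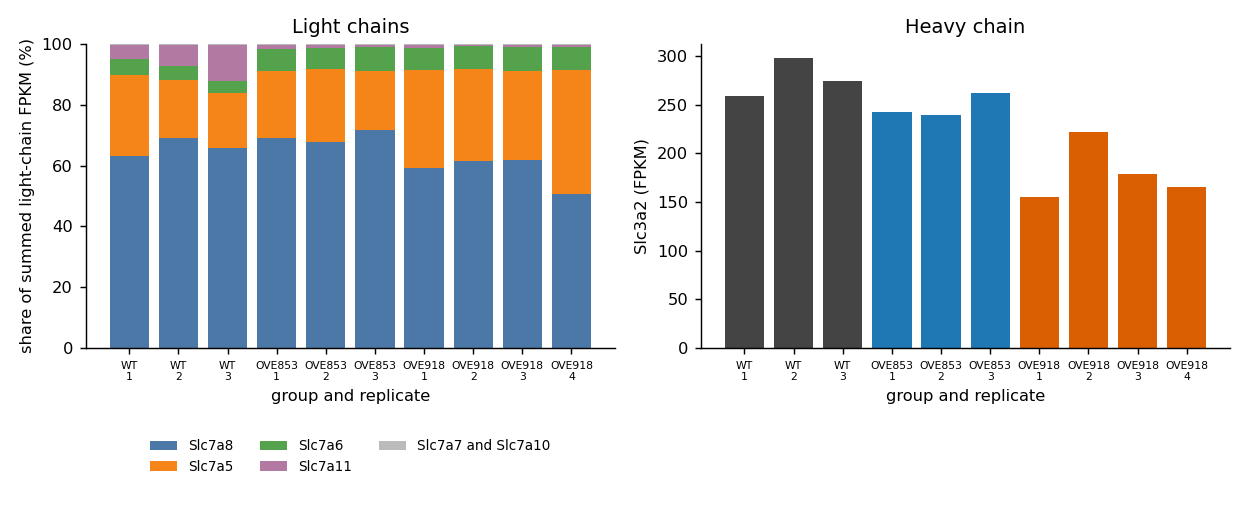
Left, share in percent of each Slc7a light chain in the summed light-chain FPKM of each library; right, FPKM of the heavy chain Slc3a2 in the same libraries. Slc7a11 takes 4.76% to 12.0% in the 3 WT libraries and at most 1.25% in the 7 transgenic libraries, and Slc3a2 is lowest in OVE918.

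Among the cationic amino acid carriers, Slc7a4 was reduced in both lines. Slc7a4 is related to the arginine carriers by sequence, lies at chr16:17386477-17401122 and overlaps P2rx6 on the other strand, from which its reads were told apart by strand. It had 60.3, 88.6 and 112 CPM in WT, 37.5, 39.5 and 38.8 CPM in OVE853 and 35.4, 40.5, 33.9 and 32.7 CPM in OVE918. All transgenic libraries lay below WT, and the lines overlap each other. It fell by 1.17 ± 0.18 in OVE853 (FDR = 0.00203) and by 1.29 ± 0.17 in OVE918 (FDR = 0.00038). Without WT replicate 3 the fold changes were -0.95 (FDR = 0.00231), which is under the limit, and -1.06 (FDR = 0.00043).

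The abundant arginine carrier Slc7a2 had 762, 730.3 and 467 CPM in WT, 952, 1027 and 1026 CPM in OVE853 and 630, 880.5, 856 and 485 CPM in OVE918. OVE853 lay above WT and OVE918 overlapped it, but neither fold change passed the test (0.62, FDR = 0.0958, and 0.13, FDR = 0.733). Slc7a1, the arginine carrier of most cells, had 13.7 to 24.9 CPM in WT and 20.1 to 26.7 CPM in the transgenic libraries. Slc7a14, a lysosomal protein of neurons, had the largest excess of any transporter gene in WT replicate 3, with 14.0 CPM there and 1.65 and 1.81 CPM in the other WT libraries.

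None of the 6 tested Slc38a genes was a DEG. Slc38a2, the most abundant one, had 529, 553 and 330 CPM in WT, 652, 638 and 665 CPM in OVE853 and 496, 583, 553 and 406 CPM in OVE918. OVE853 lay above WT and OVE918 overlapped it, with fold changes of 0.47 ± 0.19 (FDR = 0.111) and 0.12 ± 0.18 (FDR = 0.699). Slc38a3, a glutamine carrier, had 199.6, 186 and 175 CPM in WT, 152, 172 and 149 CPM in OVE853 and 98.5, 134, 114 and 95.04 CPM in OVE918. Its 3 groups do not overlap, and the fold change in OVE918 was -0.76 ± 0.12 (FDR = 0.00145). Slc38a4 had 133, 113 and 53.6 CPM in WT and 169 to 194 CPM in OVE853, a log2 fold change of 0.86 ± 0.27 (FDR = 0.0557). It was called higher in OVE853 in 1 of 20 alternatives, without WT replicate 1 (1.12, FDR = 0.0209). The value of 53.6 CPM belongs to WT replicate 3, at 0.44 times the mean of the other WT libraries. Over the alternatives the log2 fold change in OVE853 ran from 0.52 to 1.12.

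Among the Slc38a genes that passed only filterByExpr, Slc38a8 was lower and Slc38a5 higher. Slc38a8, a carrier of glutamine known from the eye, where its loss causes foveal hypoplasia, had 11.4, 7.16 and 9.47 CPM in WT, 1.78, 0.52 and 0.65 CPM in OVE853 and 1.03, 1.04, 1.19 and 1.34 CPM in OVE918. All transgenic libraries lay below WT. It fell by 3.22 ± 0.42 in OVE853 (FDR = 0.000939) and by 2.99 ± 0.37 in OVE918 (FDR = 0.00039). WT replicate 3, with 9.47 CPM, lay between the other WT libraries, and the fold changes without it were -3.24 and -3.00.

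Slc38a5, another glutamine carrier, had 6, 9 and 5 counts in WT, 19 to 23 in OVE853 and 15, 32, 25 and 38 in OVE918. It was the only transporter gene called higher under filterByExpr with all 10 libraries, by 2.11 ± 0.43 in OVE918 (FDR = 0.00693), and its log2 fold change in OVE853 was 1.39 ± 0.45 (FDR = 0.0633). It passed filterByExpr only through the transgenic libraries, with 0 WT libraries over the count limit. In all, filterByExpr called 11 transporter genes lower in OVE853 and 9 lower and 1 higher in OVE918, beside 3.72%, 5.34% and 3.45% of the 18058 genes it let in. A gene that passes a filter through 1 group has to differ, so that these counts describe the genes and lend no support to a direction.

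The remaining carriers differed less. Slc36a4, an amino acid carrier of lysosomes and the most abundant Slc36a gene, had 31.2, 32.1 and 34.3 CPM in WT, 24.4, 23.5 and 23.8 CPM in OVE853 and 22.02, 19.3, 22.7 and 17.1 CPM in OVE918. The groups do not overlap, and the fold changes were -0.44 ± 0.11 (FDR = 0.0246) and -0.68 ± 0.11 (FDR = 0.00111), both under the limit of 1. Slc43a3, the most abundant Slc43a gene and a carrier of purine bases, had 5.81, 20.0 and 32.0 CPM in WT, 26.8, 23.98 and 28.2 CPM in OVE853 and 22.1, 19.7, 20.0 and 17.8 CPM in OVE918. The WT libraries spread over both lines, and no difference was detectable (0.44 ± 0.44 and 0.04 ± 0.41).

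The last comparison asks whether the lines differ from each other. Of all genes tested, 0.487% were DEGs between OVE918 and OVE853, and of the 26 transporter genes edgeR called 0. At an unadjusted p under 0.05 there were 10 transporter genes, beside 22.9% of all genes, and DESeq2 called 1, Slc6a13, beside 0.964% of all genes. The fold changes of Slc6a13 (-1.59 ± 0.41, FDR = 0.0817), Slc6a9 (-0.89 ± 0.21, FDR = 0.0677) and Slc6a6 (-0.81 ± 0.21, FDR = 0.078) were the nearest to the FDR limit among the reduced DEGs. For these 3 genes every OVE918 library lay below every OVE853 library. The same order held for Slc6a15 and for genes that were not DEGs, such as Slc3a2, Slc7a8 and Slc38a2, whereas Slc6a17 had the opposite order. The share of all genes with such an order was not counted. In a fit of the same genes without WT replicate 3, a library of neither line, the FDRs were 0.0342, 0.0257 and 0.0468, and Slc6a13 passed both limits.

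WT replicate 3 stood apart in a part of the transporter genes. Of the 46 genes that passed filterByExpr, 11 (23.9%) were at least 3 times as high in that library as in the mean of the other WT libraries, as against 6.90% of all 18058 genes that passed it. Among them were Slc7a14 (8.10 times), Slc6a7, Slc6a5, Slc6a11, Slc1a7, Slc1a1, Slc1a2, Slc1a3, Slc6a12 and Slc1a6 (3.18 times), most of them transporters of neurons, glia or retina. Of the reduced DEGs of both lines, Slc6a13 was 1.91 times, Slc6a9 1.54 times, Slc7a4 1.5 times and Slc6a6 1.29 times as high there. Without WT replicate 3 and with the same genes tested, 4 transporter genes were DEGs in OVE853 and 5 in OVE918, all reduced. Of all 11094 genes, 409 were then DEGs in OVE853 (133 reduced) and 537 in OVE918 (263 reduced). Slc6a6, Slc6a9, Slc6a13 and Slc6a15 were called in both lines.

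**Figure D5:**
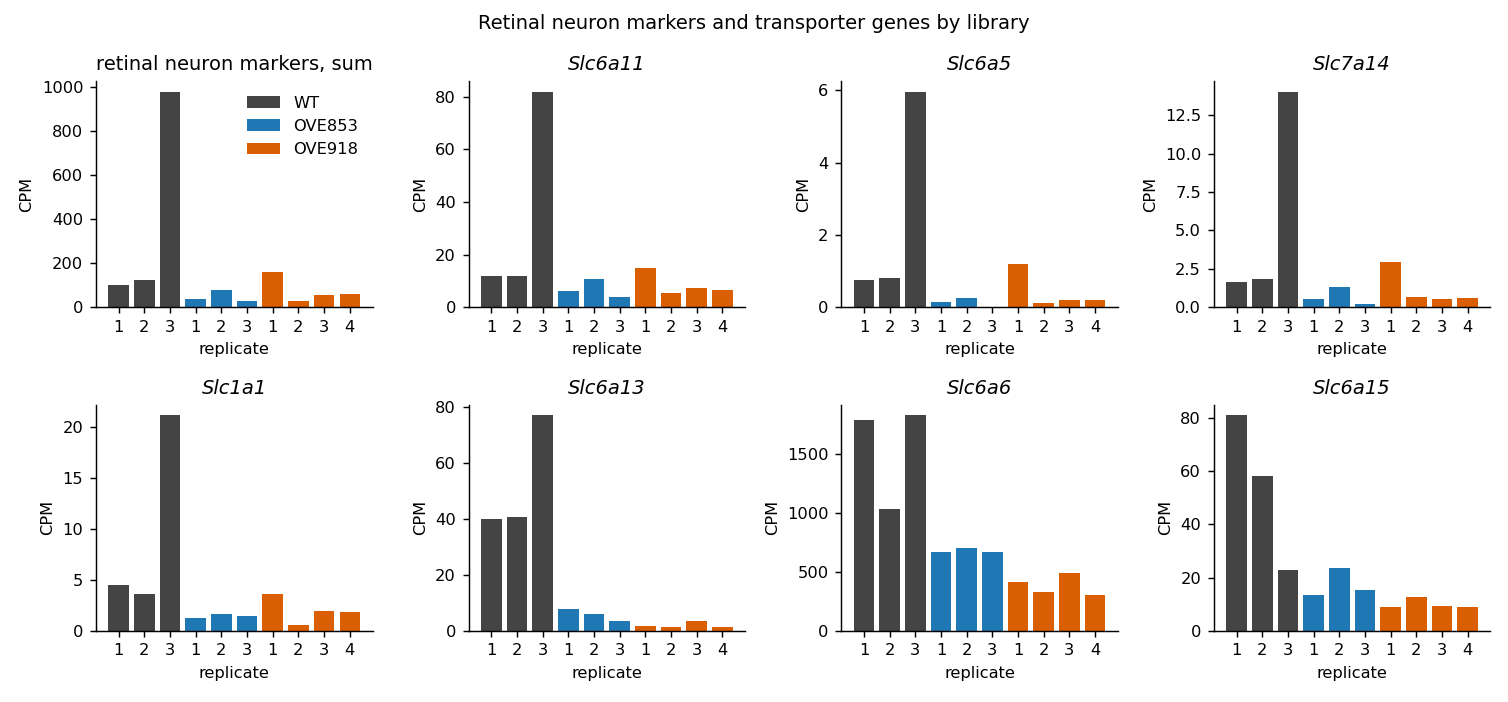
Level in CPM by library of the summed 11 retinal neuron markers and of 7 transporter genes; bars are single libraries, grouped as WT, OVE853 and OVE918 by replicate number. Slc6a11, Slc6a5, Slc7a14 and Slc1a1 peak in WT replicate 3 like the marker sum of 977 CPM, whereas Slc6a6 is as high in WT replicate 1 and Slc6a15 is lowest of WT there.

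Of 6 markers of the non-pigmented ciliary epithelium, which borders the lens, 5 were lower in all transgenic libraries than in all WT libraries. Slc6a13 and Slc6a12 had the same order, but so had other transporter genes, among them Slc3a2, Slc6a9 and Slc38a8. The share of all genes with this order was not counted. The 6 markers summed to 616, 484 and 437 CPM in WT, 329 to 364 CPM in OVE853 and 238 to 270 CPM in OVE918. Of the 6 genes, 0 were at 0 in all libraries. Best2, a chloride channel of that epithelium, had 31.0 to 51.4 CPM in WT, 5.55 to 9.15 CPM in OVE853 and 0.877 to 3.98 CPM in OVE918. The exception was Car14, a carbonic anhydrase and the largest part of the sum in every library, with 338, 284 and 182 CPM in WT, 273, 310 and 278 CPM in OVE853 and 217 to 245 CPM in OVE918. In contrast to the retinal markers, the sum was not highest in WT replicate 3. Its part in the levels of the transporter genes was not tested.

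The 4 markers of cornea summed to 237, 938 and 1619 CPM in WT, 62.7 to 92.9 CPM in OVE853 and 26.6 to 81.8 CPM in OVE918. WT replicate 1 was likewise lowest and WT replicate 3 highest of WT in 14 of the 46 transporter genes that passed filterByExpr (30.4%), a share near the 26.6% of all genes that passed it. Nearly all of the sum was Aldh3a1, an aldehyde dehydrogenase abundant in cornea, whereas Krt12, the keratin that defines corneal epithelium, had 0.760, 0.654 and 4.91 CPM in WT and 0 CPM in all transgenic libraries. Krt5 had 0.268, 0.423 and 2.21 CPM in WT and at most 0.277 CPM in the transgenic libraries. Krt14 went the other way in OVE918, with 0.223 to 1.06 CPM as against 0.0447 to 0.231 CPM in WT. The part of corneal cells in the levels of the transporter genes was not tested.

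Enzymes that make or use the carried substances were taken from lists drawn up by function. Of 10 genes of GABA and glutamate metabolism, 6 were tested and 2 were DEGs in each line, both reduced. Abat, which breaks down GABA, had 127 to 182 CPM in WT, 66.3 to 80.3 CPM in OVE853 and 34.4 to 67.3 CPM in OVE918, and it fell by 1.06 ± 0.21 (FDR = 0.00936) and by 1.52 ± 0.20 (FDR = 0.000424). When WT replicate 3 was left out, these values were -0.91 (FDR = 0.0214), which is under the limit, and -1.37 (FDR = 0.000926). Glul, glutamine synthetase, had 330 to 1061 CPM in WT, 169 to 190 CPM in OVE853 and 83.1 to 136 CPM in OVE918, with the highest value in WT replicate 3. It fell by 1.69 ± 0.42 (FDR = 0.0269) and by 2.37 ± 0.39 (FDR = 0.00247), and without WT replicate 3 the fold changes were -0.89 (FDR = 0.00852), which is under the limit, and -1.58 (FDR = 9.8e-05).

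Of 12 genes of glycine, serine and proline metabolism, 10 were tested and only Gldc, the glycine-cleaving decarboxylase, was a DEG. It fell in both lines, by 1.11 ± 0.16 (FDR = 0.00119) and by 1.45 ± 0.15 (FDR = 7.1e-05), from 113 to 172 CPM in WT to 59.8 to 73.0 CPM and 45.1 to 57.6 CPM. The fold changes were -0.98 (FDR = 0.00239), so that the call in OVE853 was lost, and -1.33 when WT replicate 3 was left out. Of 7 genes of taurine and creatine synthesis, 4 were tested and Gatm, the first enzyme of creatine synthesis, was elevated in OVE918 by 2.19 ± 0.45 (FDR = 0.00635), from 1.08 to 3.05 CPM in WT to 5.18 to 12.7 CPM. Its log2 fold change in OVE853 was 1.47 (FDR = 0.054), and it was called there when WT replicate 3 was left out (1.85, FDR = 0.0461). Ckb, a creatine kinase, was then called higher in OVE918 (1.03, FDR = 0.000489).

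Of the 4 tested genes of the osmotic response, Sgk1 was reduced in both lines and Slc5a3 in OVE918. Sgk1, a kinase that promotes the activity of several carriers, fell by 3.12 ± 0.25 in OVE853 (FDR = 4e-05) and had a log2 fold change of -2.74 ± 0.22 in OVE918 (FDR = 1.9e-05), from 66.8 to 117 CPM in WT to 8.52 to 10.2 CPM and 8.90 to 15.1 CPM. Slc5a3, the carrier of the osmolyte myo-inositol, had 129 to 165 CPM in WT, 94.5 to 105 CPM in OVE853 and 46.0 to 70.3 CPM in OVE918. It fell by 1.28 ± 0.15 in OVE918 (FDR = 0.000162), whereas the fold change in OVE853 was -0.62 ± 0.16 (FDR = 0.0229). Of the 16 genes of amino acid sensing by mTORC1, all tested, Sesn1, a leucine-sensing inhibitor, was the only DEG and fell by 1.09 ± 0.16 (FDR = 0.00147) and by 1.16 ± 0.15 (FDR = 0.000337), with values of -0.985 (FDR = 0.00324), a lost call, and -1.06 when WT replicate 3 was left out. None of the 9 tested genes of the amino acid response under ATF4 was a DEG in either line, with median log2 fold changes of -0.43 and 0.15, nor was any of 6 tested amino acid transporters of other families and of vesicles.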

How the data were processed

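The authors ran Cutadapt 5.2 for trimming and STAR 2.7.11b for alignment of the read pairs (genome GRCm39), counted them per gene with featureCounts 2.0.8 in reverse-stranded mode and deposited the raw counts of 50763 genes in 10 libraries. Their RefSeq annotation was not used here. Groups and replicate numbers were taken from the sample titles.

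Counts were analysed with edgeR 4.0.16 (limma 3.58.1, R 4.3.3), earlier than the edgeR 4.6.3 of the study. TMM factors, a robust quasi-likelihood fit of 3 groups and 3 contrasts were used, with Benjamini-Hochberg adjustment over all 11094 genes tested. SEs are the fold change divided by the square root of the F statistic. CPM was scaled by TMM factors and FPKM by total counts, each gene taking its exon length from the Primary transcripts of GENCODE vM39 by symbol or synonym (43252 and 22 genes, 7489 without a length). All genes of the families may be named, with full values for DEGs, for the most abundant gene of each family and for the genes the study names. Slc6a12, Slc7a11, Slc38a8, Slc38a5, Slc1a1 and others were described after their values were seen. Of the pathway lists, DEGs are named. Marker lists (lens epithelium, lens fiber cells, retinal neurons, Müller glia, non-pigmented ciliary epithelium, cornea) were summed without transporter genes. Genes and lists were chosen with earlier results of these data known.

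Alternatives were RLE and upper-quartile factors, DESeq2 1.42.0, other low-expression filters, no minimum fold change, a replicate block, a fit of only the groups compared and leaving out each library. The filter used 5 libraries, as the study's methods word it, and 6, as its results do, in an alternative. The fits without WT replicate 3 on the same genes and the refits of filterByExpr were chosen after seeing the data. The steps were tested on simulated data. Each pair of libraries of a group differed with a chi-square of 12.8 to 129 per degree of freedom, so that none was a copy of another. Total counts set the depth, and no molecular identifiers were used. Promoter windows were read from GRCm39 at the starts of Ensembl canonical transcripts. Protein sequences were not used here. Results for 1 of the transporter genes are not reported here.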

Additional observations from a re-analysis of the deposited data

Results flagged for a closer look

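Among the 30 transporter genes examined for an outlying library, 2 stood out within the 4 OVE918 libraries. Slc6a15, the carrier of branched-chain amino acids and proline, had 12.7 CPM in OVE918 replicate 2, as against 8.86 to 9.29 CPM in the other OVE918 libraries, and the gap to the nearest library made up 0.886 of the range of the group. Slc38a1, a glutamine carrier, had 63.9 CPM in OVE918 replicate 4, as against 89.1 to 93.2 CPM in the others, with a gap of 0.861 of the range. Both gaps are over Dixon's critical value for 4 samples. Chance flags about 1 in 20 groups.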

How the results depend on the processing

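The 7 called transporter genes of OVE853 became 11 under filterByExpr, 4 without WT replicate 3 on the same genes, and 3 to 8 when 1 library was left out, with 3 without WT replicate 3 and 4 without OVE853 replicate 1. The 5 of OVE918 became 10 under filterByExpr (9 without WT replicate 3), 9 with no filter, 9 with an FDR limit alone and 4 to 6 when 1 library was left out. Between the lines the 0 became 1 with DESeq2, 1 without WT replicate 3 on the same genes and 1 under filterByExpr without it, and stayed 0 to 0 when 1 library was left out. Slc6a6 and Slc6a9 kept their calls in both lines in all 20 alternatives, and Slc6a13 in the 14 whose filter let it in. It was not tested with 2 FPKM required in 6 libraries, nor without WT replicate 1, 2 or 3 or OVE853 replicate 1 or 2. Of the 25 tested genes described, 11 had a sign that reversed under an alternative, in comparisons in which the gene was not called, and the cause was not tested. Without WT replicate 3, on the same genes without it and under filterByExpr without it, these were Slc1a4 (-0.0442, -0.0427 and -0.0775), Slc6a8 (0.385, 0.386 and 0.351) and Slc7a8 (-0.0875, -0.0860 and -0.121) in OVE853, and Slc6a8 (0.152, 0.153 and 0.155), Slc7a1 (-0.0861, -0.0847 and -0.0826), Slc7a2 (-0.0676, -0.0663 and -0.0645), Slc38a1 (0.0344, 0.0358 and 0.0372) and Slc38a2 (-0.0874, -0.0861 and -0.0840) in OVE918. Their ranges with 1 library left out went on to 0.187, -0.347, 0.146, -0.572, 0.282, 0.272, -0.112 and 0.244, with 0.0584 for Slc38a1 at the other end. The rest, with 1 library left out, were Slc7a1 (-0.288 to 0.0799) and Slc7a5 (-0.229 to 0.265) in OVE853, Slc38a7 (-0.101 to 0.0679) and Slc43a3 (-0.393 to 0.610) in OVE918 and Slc38a10 between the lines (-0.0502 to 0.0607). The replicate block reversed Slc7a5 in OVE853 (0.0165), Slc38a1 in OVE918 (0.0596) and Slc38a10 between the lines (-0.0505). Without WT replicate 1, the 8 calls in OVE853 include Slc38a4, which was higher. A replicate block gave 6, 5 and 0 calls. The numbers do not pair the libraries, since deviations of libraries with the same number correlated between -0.30 and 0.08, and the block in effect leaves out OVE918 replicate 4. DEGs of all genes, 491 in OVE853, 620 in OVE918 and 54 between the lines, became 1244, 1587 and 44 under filterByExpr, 1061, 1548 and 59 with no filter and 1751, 2110 and 146 with an FDR limit alone. DESeq2 gave 107 between the lines, a fit of only the groups compared 97 and the block 28. Leaving out 1 library gave 334 to 664, 522 to 728 and 6 to 93, and the fit of the same genes without WT replicate 3 gave 409, 537 and 96. Low counts limit Slc6a12, Slc38a5, Slc6a5 and Slc6a7 most.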
